A study of Mus musculus with 2 samples.

Results

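The 7 genes that write, copy and erase cytosine methylation, Dnmt1, Uhrf1, Dnmt3a, Dnmt3b, Tet1, Tet2 and Tet3, were examined for open chromatin in mouse regulatory T cells. Their peaks were chosen by position alone. A peak belonged to a gene when its summit lay in the GENCODE M21 gene body or within 20 kb on either side. In the list cut at a threshold of IDR (irreproducible discovery rate, which scores whether a peak keeps its rank in a second call), 44 of 34610 peaks met this rule. A further 24 peaks were found only in the longer pseudoreplicated list of 58871 peaks. At the 20 kb limit, the outermost peak inside was that at the start of Ppan beside Dnmt1 (20887743 to 20888527, signal 26.5), and the nearest one outside lay 23.6 kb from Dnmt1 on its other side (signal 11.7).

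Accessibility was measured by ATAC-seq, in which the transposase Tn5 cuts and tags exposed DNA. The cells were primary regulatory T cells of a male mouse aged 4 months, of a strain that combines the alleles Foxp3CreERT2 and Rosa26YFP, and their recorded origin is a haematopoietic cell of bone marrow. There were 2 libraries, technical replicates of 1 biological replicate, and both entered the same peak lists. With this design every value below describes 1 pool of cells, has no error between animals and carries no test. A site open in a few cells and a site weakly open in all cells cannot be told apart, and the read depth is unknown because the lists hold no counts. As a check of the label, all 8 T cell and regulatory T cell markers looked at (Foxp3, Il2ra, Ctla4, Ikzf2, Tnfrsf18, Cd3e, Cd3g and Cd4) had a promoter peak. Of 14 markers of other blood cells 12 had none, and the CD8 T cell marker Cd8b1 had one with a signal of 10.7.

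Cytosine methylation at CpG dinucleotides is set by the de novo enzymes DNMT3A and DNMT3B and is copied after replication by DNMT1. UHRF1 brings DNMT1 to hemimethylated DNA. The TET enzymes oxidise 5-methylcytosine, which leads to its loss. In regulatory T cells this balance is known above all for the conserved intronic element of Foxp3, whose demethylated state goes with stable Foxp3 expression and needs TET2 and TET3, while DNMT1 and UHRF1 are known to matter for the lineage's numbers and function.

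The sequences at the promoter summits of the 7 genes are shown first, because these genes control CpG methylation and their own promoters differ in CpG content. Each line gives the part of the 200 bp around a summit that lies outside annotated exons, on the strand of the gene, from the GRCm38 assembly of NCBI RefSeq, which is the assembly of the mm10 peak files. Capitals mark CpG dinucleotides.
Dnmt1 start, chr9:20952980-20953058, minus strand: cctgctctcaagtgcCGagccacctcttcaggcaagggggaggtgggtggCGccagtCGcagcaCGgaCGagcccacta
Uhrf1 downstream start, chr17:56304096-56304295, plus strand: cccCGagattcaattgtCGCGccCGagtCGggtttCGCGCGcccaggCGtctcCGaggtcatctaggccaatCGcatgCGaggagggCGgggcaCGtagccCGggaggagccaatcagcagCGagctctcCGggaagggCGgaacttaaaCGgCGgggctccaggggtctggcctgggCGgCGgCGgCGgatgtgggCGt
Dnmt3a upstream start, chr12:3806319-3806497, plus strand: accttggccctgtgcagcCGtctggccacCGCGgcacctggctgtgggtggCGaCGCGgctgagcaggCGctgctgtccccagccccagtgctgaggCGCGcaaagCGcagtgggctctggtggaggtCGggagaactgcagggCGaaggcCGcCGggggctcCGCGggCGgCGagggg
Dnmt3a internal start, chr12:3891133-3891332, plus strand: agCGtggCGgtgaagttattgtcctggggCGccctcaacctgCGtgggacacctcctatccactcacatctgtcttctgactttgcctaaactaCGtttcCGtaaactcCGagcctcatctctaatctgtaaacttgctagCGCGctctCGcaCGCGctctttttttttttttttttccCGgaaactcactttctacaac
Dnmt3b first intron, chr2:153649741-153649786, plus strand: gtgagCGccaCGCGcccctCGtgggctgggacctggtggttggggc
Tet1 internal start, chr10:62865369-62865568, minus strand: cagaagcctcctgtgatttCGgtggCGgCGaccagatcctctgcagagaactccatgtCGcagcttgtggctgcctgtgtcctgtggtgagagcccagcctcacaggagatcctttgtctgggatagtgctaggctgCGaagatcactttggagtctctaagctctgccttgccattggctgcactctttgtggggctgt
Tet2 start, chr3:133544391-133544443, minus strand: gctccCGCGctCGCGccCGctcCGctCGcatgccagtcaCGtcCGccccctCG
Tet3 principal start, chr6:83456479-83456678, minus strand: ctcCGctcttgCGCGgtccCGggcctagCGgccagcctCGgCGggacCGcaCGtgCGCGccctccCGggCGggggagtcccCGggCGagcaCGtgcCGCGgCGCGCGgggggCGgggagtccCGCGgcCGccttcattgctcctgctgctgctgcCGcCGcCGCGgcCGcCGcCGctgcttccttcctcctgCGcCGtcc
Tet3 internal start, chr6:83441679-83441754, minus strand: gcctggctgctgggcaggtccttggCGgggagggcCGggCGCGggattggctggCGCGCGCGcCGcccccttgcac

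The stretch at the principal start of Tet3 held 34 CpG in 200 bases and that at Uhrf1 held 25. The stretch of the same length at the internal start of Tet1 held 5. That at the internal start of Dnmt3a held 13.

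The number of peaks differed between the genes. Tet3 had 11 peaks, Dnmt3a 8, Dnmt1 6, Uhrf1 6, Tet1 5, Dnmt3b 4 and Tet2 4. Across 21938 protein-coding genes the median was 2, and 1.48% of them had at least as many as Tet3 and 25.3% at least as many as Tet2 and Dnmt3b. The loci of these genes are longer than most: 60.2 kb for Uhrf1 to 148.4 kb for Dnmt3a, against a median of 57.4 kb. Per 100 kb of locus the order changed. Uhrf1 led with 9.97 peaks, followed by Tet3 (8.05), Dnmt1 (6.47), Dnmt3a (5.39), Dnmt3b (5.11), Tet1 (3.46) and Tet2 (3.29), where the median of all coding genes was 2.34. By this density 6.35% of coding genes had at least the value of Uhrf1, 11.6% that of Tet3, 18.4% that of Dnmt1, 24.4% that of Dnmt3a, 25.7% that of Dnmt3b, 40.4% that of Tet1 and 41.8% that of Tet2, so the count of Tet3 stood out less once locus length was taken into account.

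Many of these summits lay nearest to an annotated start of another gene, in some cases a noncoding one. Of the 44 summits, 17 were nearest to a transcription start site (TSS) of the 7 genes and 27 to one of another gene. Dnmt3a kept 7 of its 8 peaks under that count and Tet2 3 of 4, whereas Tet3 kept 2 of 11, Dnmt1 2 of 6, and Tet1, Dnmt3b and Uhrf1 1 each. This count depends on how many starts are annotated. Joined within 500 bp, they form 12 groups at Dnmt3a and 3 at Tet3, where 9 of the 11 peaks lay inside the gene. By class, 20 summits lay within 1 kb of some TSS and are called promoter peaks here, 9 of them nearest to a TSS of the 7 genes. The other 24 were distal, and 15 of these lay inside the gene itself.

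**Figure D1:**
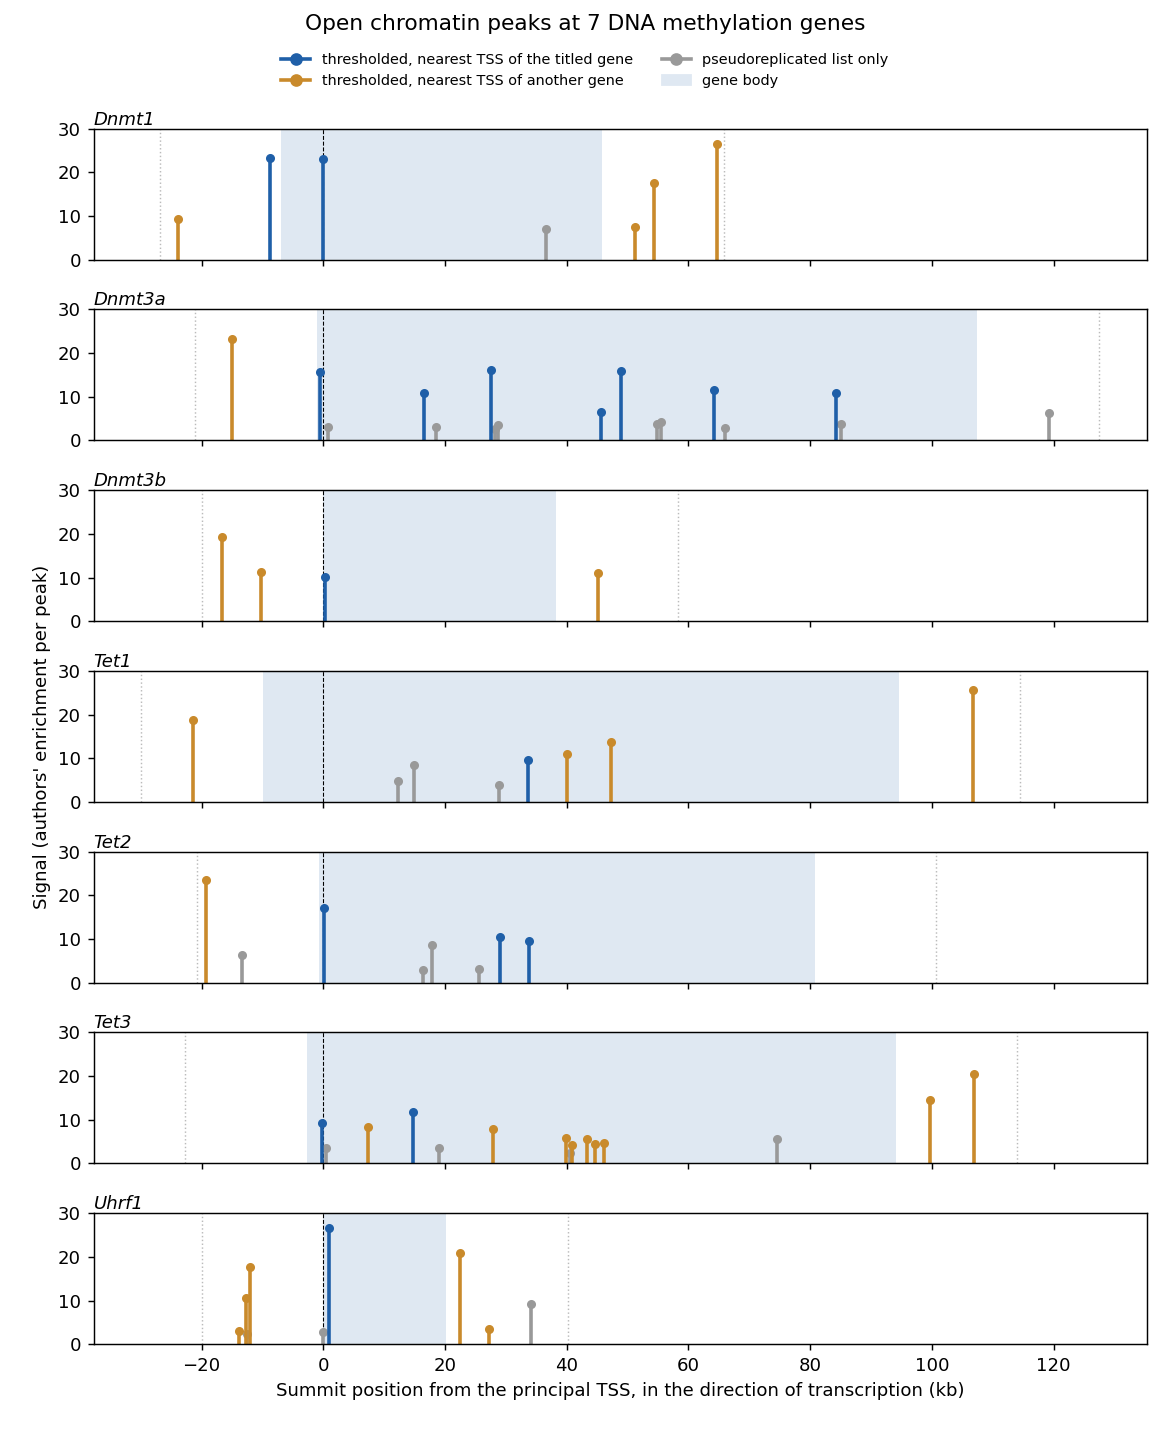
Peaks at each gene by distance of the summit from the principal TSS (x axis, kb, in the direction of transcription) and by the authors' signal (y axis), with the gene body shaded and dotted lines at 20 kb on either side. Blue stems are nearest to a TSS of the titled gene, orange ones to a TSS of another gene, and grey ones stood only in the pseudoreplicated list. Dnmt3a shows blue stems along its body, and Tet1 has none at its principal TSS.

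Dnmt1, the maintenance methyltransferase (chromosome 9, 20907209 to 20959888, minus strand), had 1 peak in its body, over the start of its principal transcript Dnmt1-201 (20952281 to 20953259). The authors' signal, an enrichment value whose reference is not stated, was 23.1 there, at percentile 85.8 of the 13691 promoter peaks, and the deposited −log10 p was 398.5. This start opens the reading frame of 1620 residues. The gene's 5′ end is another start, that of Dnmt1-202 (20959888, 1501 residues), which lies upstream. It had no peak within 1 kb in either list, and the nearest thresholded peak lay 1360 bp away. Oocytes are known to use an upstream promoter of Dnmt1 that yields a shorter protein. That nearest peak (20961248 to 20962046) lay between Dnmt1 and S1pr2, a sphingosine-1-phosphate receptor gene. Its summit was 1819 bp upstream of Dnmt1-202. It had a signal of 23.3, at percentile 94.8 of the 20919 distal peaks, and a −log10 p of 134.1, at percentile 70.1. The other 4 peaks in the window lay nearest to Ppan (26.5), Eif3g (17.6 and 7.42) and S1pr2 (9.24).

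Uhrf1, which encodes the recruiter of DNMT1 (chromosome 17, 56303321 to 56323486, plus strand), had the highest promoter signal of the 7 genes. Its peak (56303830 to 56304677) had a signal of 26.6, at percentile 94.8 of promoter peaks, and a −log10 p of 601.9. The summit lay 118 bp upstream of Uhrf1-202, the first of 3 clustered starts at 56304313 to 56304407. The earlier starts at 56303321 to 56303400, which include that of the principal transcript, lay 430 bp outside the peak. In the pseudoreplicated list a weak peak covered the first of them (56303145 to 56303368, signal 2.79). Both groups of starts lead to the same length of 782 residues. No other thresholded peak lay in the gene. The rest of the window held peaks nearest to Kdm4b, a histone demethylase gene (20.9 and 3.38), and to Plin3, a lipid droplet gene (17.6, 10.6 and 3.13). The peak at the start of Kdm4b (56325387 to 56326142) had the highest −log10 p of all 44, 1049.

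Dnmt3a, a de novo methyltransferase gene (chromosome 12, 3806007 to 3914443, plus strand), carried open sites along most of its length. At its 5′ end a peak with 4 summits (3805982 to 3807068) had a signal of 15.8, at percentile 51.8 of promoter peaks, and covered starts of the transcripts for the long protein of 908 residues. An internal start, that of Dnmt3a-205 and Dnmt3a-203 at 3891728 to 3891744, leads to at most 689 residues. Dnmt3a is known for such a shorter isoform, DNMT3A2, made from an internal promoter. A peak (3890729 to 3891700) ended 28 bp before this start. Its signal was 10.8, at percentile 26.8 of promoter peaks, and a weak peak of the pseudoreplicated list followed after the start (3891944 to 3892316, signal 3.71). Of 12 groups of starts of Dnmt3a, formed by joining those within 500 bp, 3 had a thresholded peak within 1 kb.

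The remaining Dnmt3a peaks were distal, 5 of them in introns of Dnmt3a-201. Intron 1 held 2, at +16.59 kb from the principal TSS (signal 10.95) and +27.59 kb (16.1). Intron 3 held those at +45.70 kb (6.60) and +48.84 kb (15.9), and intron 4 that at +64.15 kb (11.6). The peak at +27.59 kb had a −log10 p of 357.4, at percentile 94.4 of distal peaks. The highest signal of the locus, 23.2, lay upstream at −15.06 kb (3791322 to 3792251), nearer to a start of Dtnb than of Dnmt3a, at percentile 94.6 of distal peaks by signal and 90.7 by −log10 p. A further 9 weak peaks stood only in the pseudoreplicated list, the largest number among the 7 genes, with signals from 2.64 to 6.26.

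Dnmt3b, the second de novo enzyme gene (chromosome 2, 153649450 to 153687730, plus strand), had 1 peak in its body. It covered the shared start of its main transcripts (153649271 to 153650475), with a signal of 10.1, at percentile 23.8 of promoter peaks, and a −log10 p of 60.8, at percentile 13.7. The summit was nearest to a Dnmt3b start, 69 bp away. An antisense transcript, Dnmt3bos, starts within 2 kb of the Dnmt3b starts, and whether the peak also serves it was not tested. No further peak lay in the gene in either list. The other peaks of the window were nearest to Commd7, at its start (19.2) and upstream of it (11.3), and to Dnmt3c, a rodent copy of Dnmt3b used in the male germ line (11.1). The last of these (153694510 to 153694826) lay 1996 bp before the start of Dnmt3c, and Dnmt3c had no promoter peak.

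Among the erasers, Tet2 (chromosome 3, 133463679 to 133545139, minus strand) had the broadest and strongest promoter peak. It spanned 1738 bp with 6 summits (133543612 to 133545349) and covered 2 groups of starts, among them that of Tet2-201, which encodes 1920 residues. Its signal was 17.1, at percentile 58.9 of promoter peaks. Its −log10 p was 642.1, at percentile 89.3. The antisense gene Gm42567 starts in the same region. Both distal peaks of the gene body lay far into it, at +28.98 kb in intron 1 (10.4) and +33.83 kb in intron 2 (9.57). As at Dnmt3a, the highest signal of the locus lay upstream, here at −19.35 kb (133563387 to 133564148, 23.6), at percentile 95.3 of distal peaks. By −log10 p (155.8) this upstream peak stood lower, at percentile 75.35 of distal peaks, and far below the Tet2 promoter peak. Its summit was 16158 bp from a start of Gm49316 and 18604 bp from the nearest one of Tet2.

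Tet3 (chromosome 6, 83362373 to 83459084, minus strand) had open chromatin at 2 promoters. The peak at the internal start of Tet3-201 (83440510 to 83442103), which leads to 1668 residues, had 5 summits and a signal of 11.8. The peak at the principal start of Tet3-203 (83456258 to 83457377), with 1803 residues, had a signal of 9.32. They stood at percentiles 31.6 and 20.4 of promoter peaks. A noncoding transcript, B230319C09Rik, starts beside the internal one. The most upstream start, that of Tet3-204, lay 1707 bp from the nearest thresholded peak.

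Intron 3 of Tet3 held a group of 5 narrow peaks within 6.71 kb, +39.82 to +46.20 kb from the principal TSS (83410054 to 83416765). Their signals ran only from 4.31 to 5.89, at percentiles 3.46 to 9.996 of distal peaks, while their −log10 p ran from 41.4 to 105.2, at percentiles 16.8 to 60.3. Peaks of such low signal commonly had a −log10 p of this size: the 1371 distal peaks in the same range of signal had a median of 49.7 (interquartile range 35.6 to 70.3), and the group had a median of 59.5. Intron 3 held 1 more peak (+27.84 kb, 7.87) and intron 2 another (+7.34 kb, 8.42). The summit at +46.20 kb was nearest to a start of Mir6374, and the others in intron 3 to one of 5430434F05Rik. That at +7.34 kb was nearest to B230319C09Rik. The peaks downstream were nearest to Bola3, an iron-sulphur cluster assembly gene, at its start (20.6) and 3410 bp past it (14.6).

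Tet1 (chromosome 10, 62804570 to 62908996, minus strand) differed from the other 6 genes in that no thresholded peak lay within 1 kb of its principal TSS, that of Tet1-206 (62899118, 2039 residues), and none of the pseudoreplicated list either. The peak that counted as its promoter peak (62865131 to 62866141, signal 9.68, percentile 21.8 of promoter peaks) lay at the start of Tet1-202, a processed transcript with no reading frame, in intron 2 of Tet1-206. The start of Tet1-201 (62880014, 2007 residues) had no peak within 1 kb in either list. The start that RefSeq gives for Tet1, at 62887324, was covered by a weak peak of the pseudoreplicated list (62886452 to 62887459) with 5 summits, a signal of 4.81 and a −log10 p of 15.8. Of 12 RefSeq starts of the 7 genes, 7 were covered by a thresholded peak and 10 by a pseudoreplicated one. Intron 3 of Tet1-206 held peaks at +39.97 kb (10.9) and +47.31 kb (13.6). The former lay 846 bp downstream of the start of Gm48353. The strongest peaks of the window were those at the starts of the neighbours Ccar1 (25.6) and Slc25a16 (18.8).

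All 7 genes had a promoter peak when a peak within 1 kb of any annotated TSS counted, against 52.6% of protein-coding genes. With the principal TSS only, 6 of 7 had one, all but Tet1, against 48.6%. With the 5′ end of the gene only, 4 of 7 had one, against 48.6%, since the ends of Dnmt1, Tet1 and Tet3 lay outside. All 7 also had one with windows of 500 bp (51.7% of coding genes) and 2500 bp (54.5%), with the pseudoreplicated list (57.7%) and with the summit itself within 1 kb (51.9%). When only peaks with a −log10 p at or above the list's median of 115.1 counted, Dnmt3b and Tet1 lost theirs and 5 of 7 remained, against 44.7%. These shares are background for a list of 7, and no test was made.

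The order of the promoters depended on the measure. By signal the highest values were 26.6 at Uhrf1 and 23.1 at Dnmt1, the pair that copies methylation at replication. Tet2 (17.1) and Dnmt3a (15.8) followed, then Tet3 (11.8), Dnmt3b (10.1) and Tet1 (9.68). Among the 11537 coding genes with a promoter peak, whose median was 17.3, these values stood at percentiles 93.5, 81.9, 48.5, 40.0, 18.3, 11.3 and 9.68. By −log10 p of the same peaks Tet2 came first (642.1), before Uhrf1 (601.9), Dnmt1 (398.5), Dnmt3a (220.1), Tet3 (160.5), Tet1 (66.2) and Dnmt3b (60.8). Neither order, between neighbours or distant genes, can be set against error, since no replicate error exists.

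**Figure D2:**
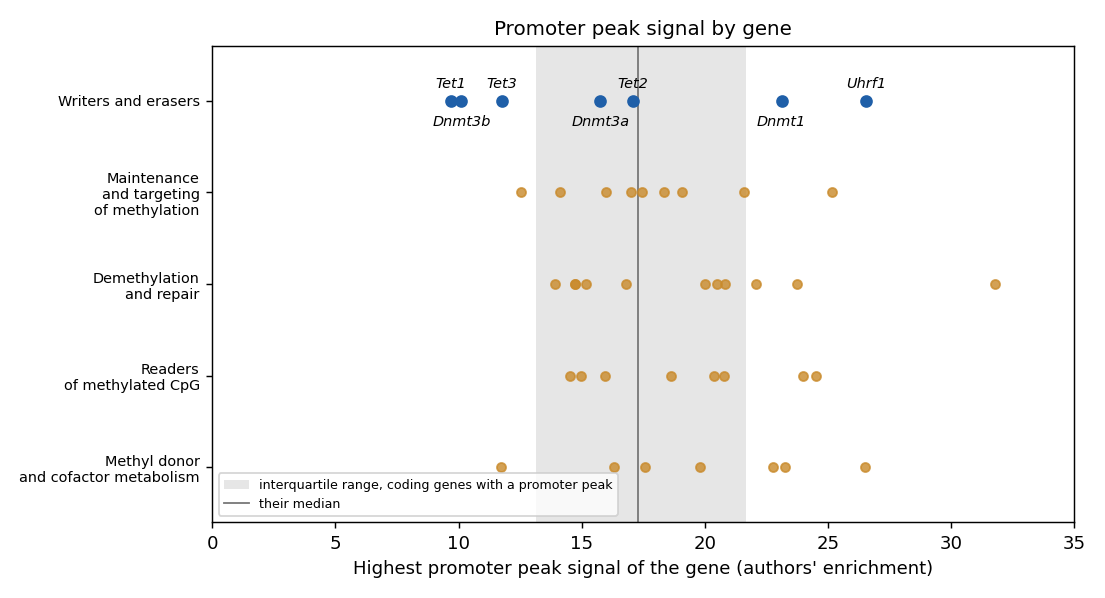
Highest promoter peak signal (x axis, the authors' enrichment) of each of the 7 genes (blue, named) and of the partner genes that had a promoter peak (orange, by list), with the median of 17.3 and the interquartile range of all coding genes with a promoter peak. Uhrf1 and Dnmt1 lie above that range, and Tet1, Dnmt3b and Tet3 below it.

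The CpG ratio (observed over expected CpG from the C and G content) in the 200 bp at the summits lay above the upper quartile of all promoter peaks at 5 of the 9 promoter peaks of these genes. Its median over the 9 was 0.958, against 0.758 over all promoter peaks (interquartile range 0.484 to 0.932). The ratio was 1.19 at Dnmt3b, 1.17 at the internal start of Dnmt3a, 1.06 at Uhrf1, 1.04 at the principal start of Tet3 and 0.958 at Tet2. It was 0.685 at the 5′ end of Dnmt3a, 0.667 at the internal start of Tet3 and 0.602 at Dnmt1. Tet1 had the lowest, 0.314, within the range of distal peaks. Signal and ratio took several combinations: Uhrf1 had the highest signal with a ratio of 1.06, Dnmt3b the highest ratio with a signal of 10.1, and Tet1 the lowest ratio with a signal of 9.68. Among the 24 distal peaks the median ratio was 0.222, against 0.255 over all distal peaks. The peak upstream of Dnmt3a had the highest of them, 0.719, at percentile 96.3.

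**Figure D3:**
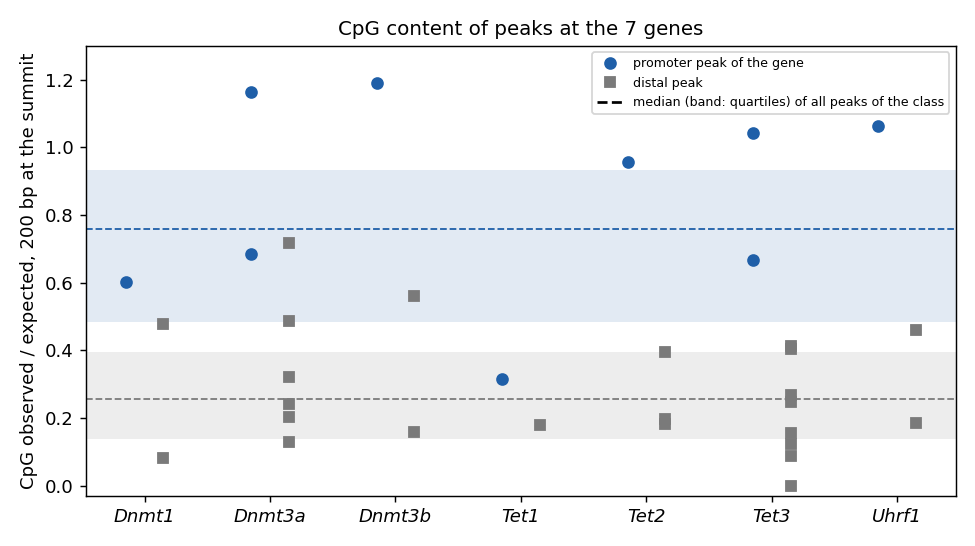
CpG observed over expected in the 200 bp at each summit (y axis), by gene (x axis), for promoter peaks of the gene (blue circles) and distal peaks (grey squares). Dashed lines and bands give the median and quartiles of all promoter peaks (blue) and all distal peaks (grey). The circle of Tet1 lies within the distal band.

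The upstream distal peaks of Tet2, Dnmt3a and Dnmt1 are shown because they had the 3 highest signals among the 24 distal peaks. Lines give 200 bp centred on the summit, on the strand of the gene, and capitals mark matches to the motifs searched.
Tet2 upstream site, chr3:133563644-133563843, minus strand: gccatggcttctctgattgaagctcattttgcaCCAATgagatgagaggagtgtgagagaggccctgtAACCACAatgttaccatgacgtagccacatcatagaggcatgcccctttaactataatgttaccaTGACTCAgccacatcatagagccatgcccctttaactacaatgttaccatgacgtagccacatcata
Dnmt3a upstream site, chr12:3791873-3792072, plus strand: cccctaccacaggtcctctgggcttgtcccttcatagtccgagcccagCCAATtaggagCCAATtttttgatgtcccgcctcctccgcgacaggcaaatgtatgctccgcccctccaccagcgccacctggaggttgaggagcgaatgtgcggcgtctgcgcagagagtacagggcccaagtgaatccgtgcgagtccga
Dnmt1 upstream site, chr9:20961608-20961807, minus strand: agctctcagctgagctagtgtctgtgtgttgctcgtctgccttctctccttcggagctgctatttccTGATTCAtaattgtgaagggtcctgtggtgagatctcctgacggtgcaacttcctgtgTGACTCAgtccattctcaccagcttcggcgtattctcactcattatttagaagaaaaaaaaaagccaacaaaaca

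The Tet2 site held 1 AP-1 match (TGACTCA), 1 RUNX match (AACCACA, the reverse strand of TGTGGTT) and 1 NFY match (CCAAT). The Dnmt1 site held 2 AP-1 matches (TGATTCA and TGACTCA). The Dnmt3a site held 2 NFY matches. In all, 19 short motifs were searched on both strands of the 200 bp windows. AP-1 (TGANTCA) was in 5 of the 24 distal windows, against 12.95% of all distal windows. RUNX (TGTGGTT) was in 2 (12.2%), NFAT (TGGAAA) in 3 (17.3%), NFY (CCAAT) in 5 (20.1%), and the CTCF core (CNAGGGGGC) in 2 (3.02%). Over the 9 promoter windows KLF/SP (GGGCGGG) was in 3, against 36.9% of all promoter windows. NFY was in 3 (31.3%), at the internal start of Tet3 and at Tet1 and Uhrf1, and NRF1 (GCATGCGC) in 1 (3.56%), at Dnmt1. STAT (TTCCNGGAA) was in 1 (0.971%), near the internal start of Dnmt3a, and it overlapped no other match. ETS (CCGGAAG) was in none of the 9, where 15.8% of all promoter windows held it. Counts this small are descriptions of these windows, and a match is not a bound site.

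The authors' deposited table of IDR results listed the −log10 p of both IDR inputs for all 44 peaks. Whether these inputs were the libraries or splits of the pooled reads is not stated. In the authors' deposited table the larger of the pair was under 1.5 times the smaller for 39 peaks, with a median of 1.17 times and at most 1.74 times. All 44 come from the list cut by IDR, which keeps peaks whose inputs agree in rank. Close pairs were thus favoured by the choice of list, and the share over all 34610 peaks is not given here. The authors' deposited table gave −log10 p inputs of 312 and 268 at the Uhrf1 promoter, 192.5 and 210.2 at the Dnmt1 promoter, and 349 and 295 at the Tet2 promoter. The same pair in the authors' deposited table was 51.7 and 76.0 at the internal start of Dnmt3a, and 39.8 and 26.5 at the Dnmt3b promoter. The −log10 IDR in the authors' deposited table ran from 1.35, for the weak peak beside Plin3, to 4.55, for the start of Kdm4b.

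**Figure D4:**
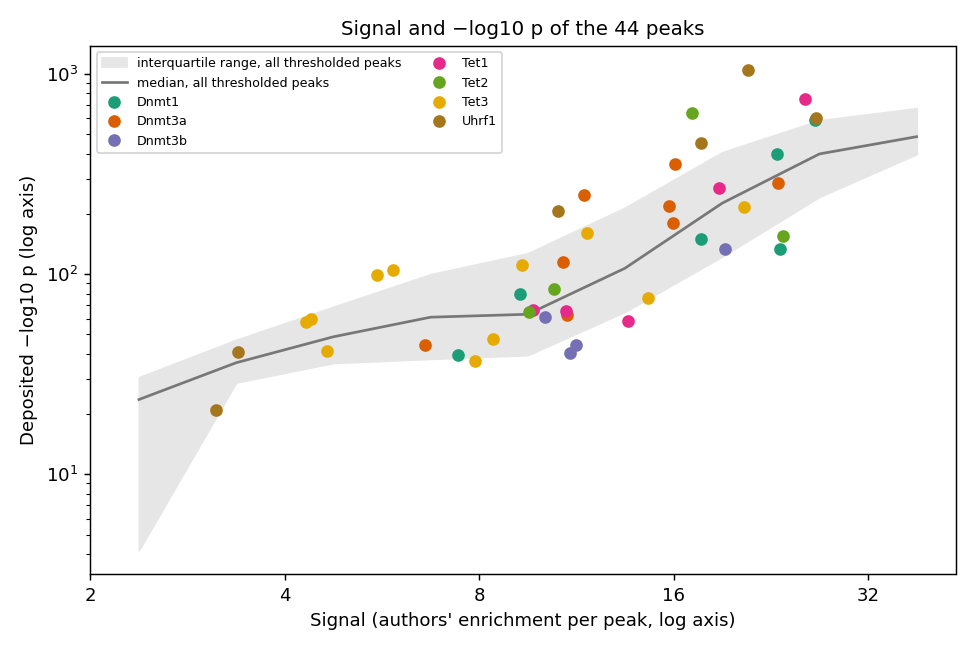
The authors' signal (x axis, log scale) and deposited −log10 p (y axis, log scale) of the 44 peaks, coloured by gene, over the median and interquartile range of all thresholded peaks in bins of signal. The Tet3 peaks at the left are the group in intron 3. The Kdm4b start, drawn in the colour of Uhrf1, is the highest point at 1049.

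Genes that work with these enzymes mostly had open promoters as well. Of 40 partner genes, 35 had a promoter peak under the same rule that 52.6% of coding genes met. In the list for maintenance and targeting, 9 of 12 did, led by the DNA ligase Lig1 (25.2), the remodeller Hells (21.6) and Uhrf2 (19.1), a paralogue of Uhrf1. The 3 without were Dnmt3c, Dppa3 and Zfp57. In the list for demethylation and repair, 11 of 13 did, led by the repair genes Xrcc1 (31.8), Parp1 (23.7) and Smug1 (22.1), and Tdg, the glycosylase that removes oxidised methylcytosine, had 14.7. Cxxc4 and Cxxc5, which encode CXXC proteins linked to TET2, had none, though Cxxc5 had one in the pseudoreplicated list. All 8 genes listed under readers of methylated CpG had one, among them Mbd4 (24.0) and Mbd1 (20.8). All 7 genes for the methyl donor and TET cofactors had one, led by Idh1 (26.5), Ahcy (23.3) and Idh2 (22.8). The median promoter signal of the 35 was 18.6, beside 17.3 over all coding genes with a promoter peak. With the 5′ end of the gene only, 29 of the 40 had a peak, against 48.6% of coding genes.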

How the data were processed

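ATAC-seq was measured in 2 technical libraries of 1 biological sample. The 3 peak lists used are on mm10 and pooled over the libraries. Per the file listings, they derive from a shared alignment. Which aligner and peak caller were run, with what versions and whether read ends were shifted, is not given in the sources used here. The deposited signal of each peak is the authors' enrichment value, with an unstated reference, and was used only to describe or rank peaks within a list. Each deposited −log10 p and −log10 IDR was used in the same way, with columns in narrowPeak and IDR order.

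Lines that shared an interval were joined to 1 peak at its summit of highest signal. Coordinates are 1-based. GENCODE M21 gave genes and starts. The principal transcript was that with the best APPRIS tag. Sequence came from GRCm38.p6, whose chromosome lengths hold every peak. Genes were counted as having a promoter peak by any overlap with 1 kb on either side of a TSS, while single peaks were classed as promoter or distal by whether the summit lay within 1 kb of any TSS. Percentiles give the share of peaks, or of genes, at or below a value. No test was possible, so counts stand beside those of all coding genes. The 7 genes, partner lists, markers and motifs were chosen with earlier results of these data known. Named were the 7 genes, all their thresholded peaks, neighbours nearest to a peak, and from each partner list the 3 strongest promoters and up to 3 without. Tdg was named after its value was seen, and some single-gene values are not reported here. Python 3.11.15, pandas 2.3.3 and pysam 0.24.0 were used, and the functions were tested on simulated data.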

Additional observations from a re-analysis of the deposited data

How the results depend on the processing

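The count of 44 peaks rests on the window and the list. It was 68 with the pseudoreplicated list, 27 with 5 kb and 68 with 50 kb on either side, 21 when a −log10 p at or above the list's median was required, 19 when the same was required of the signal, 92 with every summit line and 17 with peaks nearest to a TSS of the gene. Of 49 counts for single genes under these alternatives, 18 stayed within 1.5 times, 12 were higher and 19 lower beyond that. The 7 genes with a promoter peak became 4 with 5′ ends of genes only, and the other alternatives gave 5 to 7. The count of 35 partner genes ranged from 29 to 36. The median percentile of the strongest promoter peaks among promoter peaks, 51.8 by signal, was 48.3 by −log10 p and 63.7 within the pseudoreplicated list. The median CpG ratio of 0.958 was 0.901 in windows of 100 bp and 0.830 in windows of 400 bp. The cause was not tested. Medians over all promoter peaks in those windows are not given here, so the contrast with all promoter peaks is shown for 200 bp only. The libraries could not be left out in turn, as the lists are pooled. No paired analysis was possible because there is 1 group. Read depth is unknown, so no limit of detection can be given.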

Other observations

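The upstream Tet2 site, the peak of highest signal in its locus, has a repeated sequence. In the 200 bp printed for it, a run of 30 bases occurred again unchanged 98 bp further on. Between them lies a copy with some changed bases, which holds the AP-1 match TGACTCA. Only exact repeats were searched. The longest such direct repeat in the other 11 printed stretches was 11 bases, but those of 46 and 53 bases are too short to hold 1 of 30. None of this window is marked as a repeat in the assembly.

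Weak peaks added to some of these genes and not to others. The 24 peaks found only in the pseudoreplicated list had a median signal of 3.66 (2.30 to 9.18). Dnmt3a, with the longest locus (148.4 kb), had 9 of them, Tet2 and Tet3 4 each, Tet1 and Uhrf1 3 each, Dnmt1 1 and Dnmt3b 0. At Dnmt3a, 1 of them (3862140 to 3862737, signal 4.24) covered the start of the antisense transcript Dnmt3aos, which had no thresholded peak within 1 kb. In Tet1 the strongest (62883790 to 62884398, signal 8.55, −log10 p 43.2) lay in intron 1 of the principal transcript, 3067 bp downstream of the RefSeq start.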
